A study of Mus musculus with 7 samples.

Results

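Gene expression was followed for 9 genes of the unfolded protein response in developing mouse colon: Ern1, Ern2, Xbp1, Atf4, Ddit3, Nupr1, Hspa5, Dnajc3 and Creb3l1. They were chosen by name out of 18194 genes measured, and the choice was made with their levels on these same arrays in view, so all values of the 9 genes are given as a description, without a test. Colon was taken from untreated inbred C57BL/6 mice. It was collected at 6 embryonic stages a day apart, the first E13.5 and the last E18.5, and from adults 8 weeks after birth. There was 1 Affymetrix mouse expression array per stage and no replicate at any stage. The sources used here do not give how many animals went into an RNA sample. Levels are log2 intensities normalized by RMA, which brings all arrays to nearly the same distribution, so a difference of 1 corresponds to 2-fold, and levels of different genes were not set against each other because probes differ in brightness.

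The unfolded protein response adjusts the folding capacity of the endoplasmic reticulum (ER) to the amount of protein that enters it. The sensors IRE1, PERK and ATF6 span the ER membrane. IRE1 removes a short intron from the Xbp1 mRNA, which then codes for an active transcription factor, PERK slows translation and favours synthesis of ATF4, and ATF6 is cut in the Golgi to free its own transcription factor domain. Cells that secrete large amounts of glycoprotein, such as mucus-filled goblet cells of the colon, have an extended ER and depend on this system. Ern1 codes for the widely expressed IRE1α and Ern2 for IRE1β, a form found in the epithelium of the gut and airways. The arrays measure total mRNA per probe set. Splicing of Xbp1, phosphorylation of the sensors and cleavage of ATF6 or CREB3L1 were not measured.

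Promoter windows were available from RefSeq (GRCm38.p6) for 7 of the 9 genes, the exceptions being Ern2 and Creb3l1, and each ran from 250 bases before to 50 bases after the transcription start. The windows were searched on both strands for 4 response elements of this pathway. The 3 matches found in the 9 genes are shown with 20 bases on each side, 5′ to 3′ on the strand of the gene, with the fixed letters of the element in capitals, because they separate the chaperone genes Hspa5 and Dnajc3 from the stress gene Nupr1. The matches in pathway genes that passed a test below, in either direction, are added, except that of Iars, which lies after the start. Where the match is on the strand opposite to the gene, the capitals show its reverse complement.
Hspa5, chr2:34772005-34772063, plus strand: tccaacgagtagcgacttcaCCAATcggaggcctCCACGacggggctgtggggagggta
Dnajc3, chr14:118937807-118937865, plus strand: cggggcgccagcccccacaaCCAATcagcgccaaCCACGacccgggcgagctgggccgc
Nupr1, chr7:126625553-126625600, minus strand: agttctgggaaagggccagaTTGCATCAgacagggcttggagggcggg
Atf3, chr1:191183416-191183463, minus strand: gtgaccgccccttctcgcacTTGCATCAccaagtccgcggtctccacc
Chac1, chr2:119351029-119351076, plus strand: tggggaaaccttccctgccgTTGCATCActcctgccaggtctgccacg
Herpud1, chr8:94386297-94386344, plus strand: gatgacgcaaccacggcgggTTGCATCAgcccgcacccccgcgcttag
Herpud1, chr8:94386357-94386407, plus strand: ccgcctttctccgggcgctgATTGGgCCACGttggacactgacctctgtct
Vldlr, chr19:27216800-27216847, plus strand: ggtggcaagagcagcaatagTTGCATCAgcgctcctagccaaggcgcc
Hsp90b1, chr10:86705618-86705676, minus strand: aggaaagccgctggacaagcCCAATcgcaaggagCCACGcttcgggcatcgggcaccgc
Hsp90b1, chr10:86705513-86705571, minus strand: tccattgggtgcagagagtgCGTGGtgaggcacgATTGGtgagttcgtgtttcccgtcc
Kdelr3, chr15:79516358-79516405, plus strand: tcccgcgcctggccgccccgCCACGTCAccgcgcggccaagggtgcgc
Txndc11, chr16:11134607-11134654, minus strand: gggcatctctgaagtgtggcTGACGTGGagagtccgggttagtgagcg
Vcp, chr4:43000594-43000641, minus strand: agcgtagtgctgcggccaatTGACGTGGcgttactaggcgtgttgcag

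The ER stress element, CCAAT followed after 9 bases of any kind by CCACG, is bound by NF-Y together with ATF6 or XBP1. It was present in 39 of 32851 windows (0.119%) and began 65 bases before the start of Hspa5 and 105 bases before that of Dnajc3. Among 178 genes of the secretory pathway lists described below that had a window, 8 held it (4.49%), namely Hsp90b1, Calr, Canx, Creld2, Pdia6, Ero1b, Syvn1 and Derl3. The C/EBP-ATF response element, TTGCATCA, to which ATF4 binds with a C/EBP partner, was present in 0.895% of all windows and began 110 bases before the start of Nupr1. It was found in 12 of the 178 pathway genes (6.74%). They were Herpud1, Pycr1, Slc7a11, Slc1a4, Aars, Tars, Iars, Yars, Vldlr, Fgf21, Atf3 and Chac1. All but Herpud1, Atf3 and Chac1 are on the list of known ATF4 targets. The lists hold genes already known to belong to the pathway. Their shares for this element and for the ER stress element are therefore a description and no test. ER stress element II, ATTGG followed after 1 base of any kind by CCACG, was in 0.0365% of windows, and the unfolded protein response element, TGACGTGG, in 0.676%, and neither was in a window of the 9 genes. The searched letters of these elements overlap in part, since CCACG closes both ER stress elements and its reverse complement lies within the last one. A match shows only that the letters are there.

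The 9 genes divided into those with a higher level late in gestation and those without. At E18.5, 5 genes were at least 2-fold above E13.5, Xbp1, Ern2, Creb3l1, Nupr1 and Dnajc3, where 4.89% of all genes were, and none was 2-fold below, where 2.41% of all genes were. In adult colon the same 5 were at least 2-fold above E13.5, beside 9.44% of all genes, and again none was 2-fold below, beside 8.65% of all genes. Dnajc3 is counted by the median over its 5 probe sets, which disagreed: 1 of them was 2-fold above E13.5 at E18.5 and 2 were in adult colon, where the brightest gave adult minus E13.5 of 0.10 on the log2 scale. Between adult colon and E18.5, none of the 9 differed by 2-fold in either direction, where 4.33% of all genes were 2-fold higher in adult colon and 3.84% were 2-fold lower. Between neighbouring embryonic stages, 2-fold steps upward were made by 1 gene into E15.5 (Creb3l1, beside 0.0934% of all genes), 2 genes into E16.5 (Ern2 and Nupr1, beside 1.01%) and 1 gene into E17.5 (Nupr1, beside 0.649%). None of the 9 genes made such a step into E14.5 or E18.5, where 0.324% and 0.368% of all genes did. Downward steps of 2-fold were absent from the 9 genes at all 5 embryonic intervals, in which 0.115%, 0.308%, 0.126%, 0.0165% and 0.0% of all genes made one. These shares are the background against which the genes were picked and say nothing further about them. Because colon tissue was used, more cells that express a gene and more RNA per cell cannot be told apart.

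**Figure D1:**
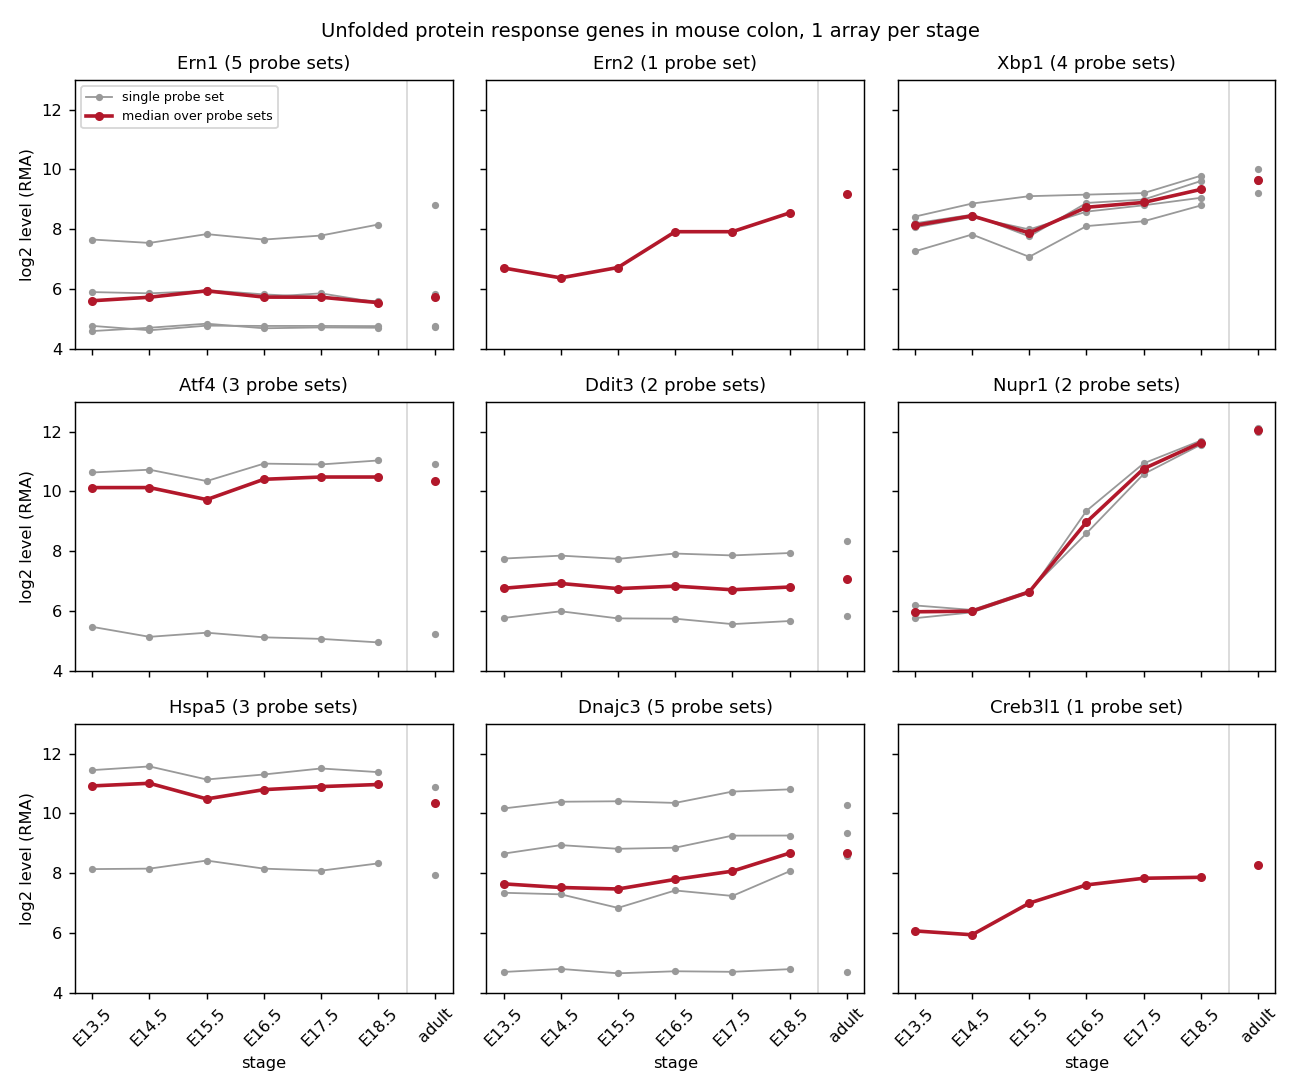
Log2 levels (vertical axis) of the 9 genes at the 7 stages (horizontal axis), 1 array per stage. Grey points and lines are single probe sets, red is their median, and the adult array stands apart at the right. The medians of Nupr1, Ern2, Creb3l1 and Xbp1 were highest in adult colon, while the Hspa5 median was lowest there at 10.34.

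Of the IRE1 branch, Ern2 (chr7:122169893-122186239 in GRCm38.p6) was measured by 1 probe set. Its level was 6.70, 6.37, 6.72, 7.91, 7.91, 8.54 and 9.19 from E13.5 through E18.5 to adult. The first 3 stages lay close together, the step from E15.5 to E16.5 was 2.30-fold, and the deposited values at E16.5 and E17.5 were identical. Relative to E13.5, Ern2 was 3.58-fold higher at E18.5 and 5.60-fold higher in adult colon. A line through the 6 embryonic arrays had a slope of 0.43 ± 0.07 log2 per day (SE). This and the other SEs are from limma, which draws the variance of each gene toward a value common to all genes. The SD of the arrays about the line, 0.39, is that of the gene alone. With this SD as the only measure of spread, E13.5, E14.5 and E15.5 could not be placed in order. E16.5 stood above E15.5, E18.5 above E17.5 and adult above E18.5 by more than 1 SD. A difference between 2 single arrays varies more than 1 array does. Here and for the genes below, a gap above 1 SD is therefore a description and does not establish an order.

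Ern1, the widely expressed sensor, differed from Ern2. The median of its 5 probe sets stayed between 5.54 and 5.93, with E15.5 highest, above E16.5 by 0.21, more than the SD of 0.15, and smaller gaps between the other neighbours in the order. However, 4 of these probe sets lay below the median gene on the arrays (6.13 as the mean over arrays) and hardly varied. The brightest Ern1 probe set (1437119_at) read 7.65, 7.54, 7.83, 7.65, 7.79, 8.16 and 8.80 over the 7 stages. On this probe set the adult level was 2.21-fold that of E13.5, and the embryonic arrays up to E17.5 lay between 7.54 and 7.83. Whether Ern1 was level or higher in adult colon therefore depends on which probe set is read.

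Xbp1, which encodes the transcription factor activated by IRE1, had a median level of 8.13, 8.45, 7.87, 8.73, 8.89, 9.33 and 9.65 over the 7 stages. The lowest value was at E15.5 and the highest in adult colon. The level was 2.30-fold higher at E18.5 and 2.87-fold higher in adult colon than at E13.5, and the embryonic slope was 0.23 ± 0.06 log2 per day (SE). Of neighbouring stages in the order of levels, only E18.5 stood above the next lower stage, E17.5, by more than the SD of 0.33 about the line. The 4 probe sets shared the difference between adult colon and E13.5, which ranged from 1.20 to 1.94. They differed at E15.5, where 3 of them were at their lowest and 1437223_s_at, read at 9.10, was above its E14.5 value of 8.86. The same 3 were highest in adult colon, whereas 1437223_s_at read 9.62 there, below its 9.79 at E18.5.

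Creb3l1, an ER-bound transcription factor also called OASIS that is cleaved in the Golgi like ATF6 (chr2:91982328-92024170), was measured by 1 probe set. It read 6.07, 5.94, 7.0, 7.61, 7.83, 7.86 and 8.28 over the 7 stages. Creb3l1 was the only one of the 9 genes with a 2-fold step between E14.5 and E15.5 (2.08-fold), a step that 0.0934% of all genes made. By E15.5 it had covered 42.0% of the log2 difference between E13.5 and adult colon, and by E16.5 69.6%. Ern2 had covered 0.616% and 48.8% at the same stages. E17.5 and E18.5 differed by 0.03, far less than the SD of 0.34 about the embryonic line, whose slope was 0.44 ± 0.06 log2 per day (SE).

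Nupr1, a small nuclear protein induced by several kinds of stress and known as a target of ATF4, covered the widest range of the 9 genes. Its median level was 5.97, 5.99, 6.64, 8.97, 10.76, 11.63 and 12.06. Levels at E13.5 and E14.5 differed by 0.02, and the steps into E16.5 and into E17.5, were 5.05-fold and 3.45-fold, where 1.01% and 0.649% of all genes made an upward step of at least 2-fold. The level at E18.5 was 50.6-fold and that in adult colon 67.9-fold the level at E13.5, but the E13.5 level lay below the median gene of its array (6.07) and the values carry no detection call, so the size of these folds is uncertain. The 2 probe sets followed each other, with adult minus E13.5 at 6.37 and 5.79. By E18.5, 93.0% of the log2 difference between E13.5 and adult colon had been covered, and adult colon exceeded E18.5 by 0.42, less than the SD of 0.75 about the embryonic line. That SD includes the bend of the time course, since Nupr1 did not follow a straight line (slope 1.28 ± 0.14 log2 per day, SE).

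The genes next to Nupr1 in the PERK branch had another course. Atf4, the transcription factor whose synthesis is controlled mainly at translation, read 10.13, 10.13, 9.73, 10.41, 10.48, 10.48 and 10.34. Its levels from E16.5 to adult lay between 10.34 and 10.48, and E15.5 was the lowest stage. The 2 bright probe sets had this course, and the third (1439258_at) was dim at 4.95 to 5.47. Ddit3, which codes for CHOP, a transcription factor of prolonged ER stress, had a median between 6.71 and 6.92 in the embryo and 7.08 in adult colon. On its bright probe set (1417516_at) adult colon read 8.33, above all 6 embryonic arrays at 7.74 to 7.94, whereas the dim probe set (1443897_at) read 5.83 in adult colon and 5.56 to 5.99 in the embryo, so that adult colon lay within the embryonic range there.

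Hspa5 codes for BiP, the abundant chaperone of the ER lumen that also holds the sensors inactive. Its median level was 10.92, 11.01, 10.49, 10.80, 10.90, 10.97 and 10.34 over the 7 stages. The embryonic slope was 0.01 ± 0.04 log2 per day (SE), and adult colon was 0.645 times the E18.5 level. All 3 probe sets were lowest in adult colon, although on the median the adult level and that at E15.5 differed by 0.15, less than the SD of 0.21. Hspa5 and Ern2 thus had opposite orders at the last 2 stages, with adult colon below E18.5 by 0.63 for Hspa5 and above it by 0.64 for Ern2.

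Dnajc3, a co-chaperone of BiP that also inhibits PERK, gave different answers on its 5 probe sets. The median was 7.64, 7.52, 7.47, 7.79, 8.07, 8.67 and 8.68. Late in gestation the 4 bright probe sets shared the direction, with E18.5 above E13.5 by 1.52-fold to 2.04-fold, and 2-fold was reached on 1449372_at alone, which was the median probe set at both of these stages. In adult colon they parted, and the median there was the value of another probe set, 1419162_s_at. Probe sets 1449372_at and 1419162_s_at were highest in adult colon at 9.35 and 8.68, against 8.67 and 8.06 at E18.5. Probe sets 1433887_at and 1419163_s_at were lower in adult colon, at 10.27 and 8.59, against 10.81 and 9.26 at E18.5. The fifth probe set, 1449373_at, was dim and read 4.65 to 4.80 throughout.

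The median levels of Xbp1, Atf4 and Dnajc3 were lowest at E15.5 of all 7 stages, and that of Hspa5 was lowest there among the embryonic stages. Compared with the mean of E14.5 and E16.5, the E15.5 array was lower by 0.71 for Xbp1, 0.54 for Atf4, 0.42 for Hspa5, 0.19 for Dnajc3 and 0.13 for Ddit3, and it was higher by 0.22 for Creb3l1 and 0.21 for Ern1. It was also lower by 0.85 for Nupr1 and 0.43 for Ern2, although both were higher at E15.5 than at E14.5, so E15.5 was not their lowest stage. Single probe sets did not all share this, since 1447824_x_at of Hspa5 was highest at E15.5, at 8.42. Over all genes the same difference had a median of −0.0021, and over the 4549 brightest genes −0.10. The E15.5 array also had the lowest upper quartile over genes of all 7 arrays, 7.39, and the lowest 90th percentile, 8.75. With 1 array at E15.5, the stage and the array cannot be told apart.

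Among all genes whose level varied by at least 1 over the 7 arrays (4277 genes), the 3 most like each of the 5 varying members were listed by Pearson's r over 7 arrays, as a description. For Ern2 these were Gfi1 (0.992), Spdef (0.991) and Rnf123 (0.990), of which Spdef and Gfi1 code for transcription factors of secretory cell differentiation. For Creb3l1 they were Sec16b (0.992), a protein of ER exit sites, the keratin gene Krt7 (0.985) and Spink4 (0.980), a secreted product of goblet cells. For Nupr1 they were Cdx1 (0.999), a transcription factor of intestinal epithelium, Slc12a8 (0.999) and Aldh1l1 (0.998). For Xbp1 they were Hcfc1r1 (0.995), Plpp5 (0.993) and Cox8a (0.993), and for Dnajc3 Atp9a (0.992), Tcn2 (0.988) and Ifit1bl2 (0.988). The Dnajc3 median was the value of 1449372_at in the embryo and of 1419162_s_at in adult colon, where its bright probe sets disagreed. All of these correlations share the same 7 arrays and a common upward course over the stages. Among the members themselves, Ern2 and Nupr1 had r = 0.966, and Hspa5 had r = −0.38 with Ern2 and −0.26 with Nupr1.

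Markers of other cells moved over the same stages. All 14 goblet cell genes and all 13 epithelial genes had a significant upward slope (limma, adjusted p under 0.05), where 9.12% of all genes did. The median of the goblet list was 5.80, 5.98, 5.95, 8.32, 9.62, 10.20 and 11.97 over the 7 stages, with its largest step between E15.5 and E16.5, as for Ern2 and Nupr1. Spdef itself read 5.91 at E15.5 and 7.33 at E16.5, and Muc2, the main mucin of goblet cells, 6.25 and 7.66. The largest step of Muc2 came a day later, with 10.36 at E17.5. Of 12 mesenchyme and muscle genes, 7 rose and 1 fell, beside 9.12% and 10.4% of all genes. Beside the same shares, 5 of 16 pancreatic acinar genes rose (31.2%), as did 3 of 9 hepatocyte genes (33.3%). Of 7 adipocyte genes 2 rose (28.6%), and of 12 plasma and B cell genes 1 did (8.33%). No gene of these 4 lists fell. The part of these markers in the levels of the 9 genes was not tested. Of the colon markers, Cdx2 read 8.58 to 9.35 over the 7 stages. Car1, Car4 and Slc26a3 read between 4.33 and 6.84 in the embryo and between 9.62 and 13.19 in adult colon. The other measured colon markers did not share that course. Hoxa13 read 5.01 to 5.25 and Hoxd13 6.90 to 7.32 over the 7 stages. Hoxb13 and Vil1 read 6.48 and 8.43 at E13.5, 9.07 and 11.07 at E18.5, and 9.80 and 12.03 in adult colon.

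Markers of other cells also moved on the adult array. Of 12 plasma and B cell genes, 3 were higher and 1 was lower in adult colon than the fit at E18.5, where 4.23% of all genes were higher and 3.26% lower, and Jchain, which joins IgA molecules, read 10.89 in adult colon and 4.02 to 4.29 in the embryo. Xbp1 is a transcription factor of plasma cells too. The plasma cell list had a median of 5.97 in adult colon and 4.94 to 5.10 in the embryo. In adult colon 10 of its 12 genes were above all embryonic arrays, the exceptions being Tnfrsf17 and Prdm1. For this count and that of the acinar genes below, the share over all genes was not computed. Among the 214 measured pathway genes described further below, 80 were above all embryonic arrays in adult colon. Of 16 pancreatic acinar genes, 7 were higher in adult colon, beside the same 4.23%, and 15 of the 16, all but Ptf1a, were above all embryonic arrays. Sycn (11.94, against 8.13 at E18.5) and Cela1 (9.96, against 6.26) had the highest adult levels of the list. Its adult median was 6.29, near the median gene of that array (6.17). Cpb1, Cel and Pnliprp1 read 5.68, 6.02 and 5.12 in adult colon and did not pass. Of 7 adipocyte genes, 4 were higher in adult colon, beside the same 4.23%. These were Adipoq (7.45, against 4.41 at E18.5), Retn (8.24, against 5.93), Lpl (7.97, against 6.86) and Pparg (10.04, against 8.33). Pparg had already risen in the embryo, from 6.15 at E13.5. Fabp4 (7.77, against 7.52), Lep (5.09, against 4.94) and Cidec (5.98, against 5.33) did not pass. Of 19 genes that respond to tissue handling, 5 were higher in adult colon, beside the same 4.23%, among them Fos at 10.57, against 7.49 at E18.5. The 5′ minus 3′ signal of Gapdh, which is more negative when RNA is shortened, was −2.41 for adult colon and lay between −1.59 and −1.29 for the embryonic stages. The part of these in the adult levels of the 9 genes was not tested.

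**Figure D2:**
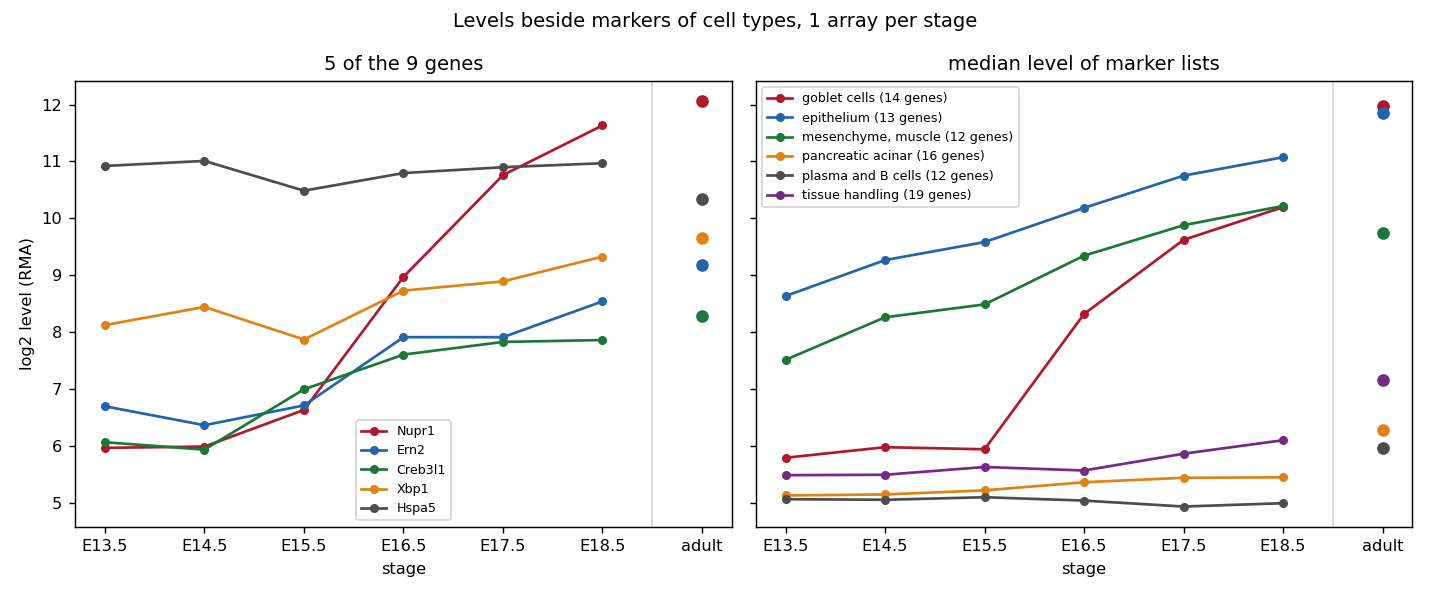
Log2 levels over the 7 stages (horizontal axis) of 5 of the 9 genes (left) and of the median of 6 marker lists (right), 1 array per stage with the adult array apart. The goblet cell median was 5.95 at E15.5 and 8.32 at E16.5, the same interval in which Ern2 and Nupr1 made their largest steps, while the acinar and plasma cell medians were highest on the adult array, at 6.29 and 5.97.

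To see how the rest of the pathway moved, 214 measured genes of 223 in 8 lists of the secretory pathway were tested across all genes with limma, as a slope per embryonic day over the 6 embryonic arrays and as adult colon minus the E18.5 level of the fit. Among the 214 genes, 34 rose in the embryo (15.9%), beside 9.12% of all genes, and 12 fell (5.61%), beside 10.4% of all genes. In adult colon, 8 were higher by at least 2-fold (3.74%, beside 4.23% of all genes) and 7 were lower (3.27%, beside 3.26%). The median slope of the 214 genes was 0.03 log2 per day, and that of all genes was 0.0009. The counts depended on single arrays. For rising genes, leaving out E18.5 gave 17, leaving out E13.5 gave 19, leaving out E17.5 gave 21 and leaving out E14.5 gave 22, and the count of falling genes was 3, 6, 5 and 3 in the same omissions. No slope passed the test for 168 of the 214 genes.

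Of 26 chaperone and cyclophilin genes, 2 rose, 2 fell and 22 did not pass, where 9.12% of all genes rose and 10.4% fell. Fkbp2, a prolyl isomerase of the ER, and Mogs, the glucosidase that begins glycan trimming, rose by 0.15 and 0.14 log2 per day, but the calls were lost without E18.5 for Fkbp2 (adjusted p = 0.0556, limma) and without E13.5 for Mogs (adjusted p = 0.0594). Hsp90b1, the partner chaperone of BiP, had a slope of −0.07 ± 0.02 (SE, adjusted p = 0.0356) that was lost in 5 of the 6 omissions, all but that of E15.5 (adjusted p up to 0.105). Serpinh1, the collagen chaperone, was lower in adult colon, with a difference of −1.84 ± 0.17 log2 (SE, adjusted p = 7.28e-04), as was the cyclophilin gene Ppic with −1.67 ± 0.10 (adjusted p = 1.02e-04). The collagen genes Col1a1, Col1a2 and Col3a1 of the mesenchyme list were lower in adult colon too, and their part in this was not tested. None of the 8 pathway genes with the ER stress element of Hspa5 and Dnajc3 rose in the embryo, and 1 fell, Hsp90b1, beside 9.12% rising and 10.4% falling of all genes.

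Disulfide formation held the largest slope of the lists. Agr2, a protein disulfide isomerase of mucus-producing cells that is also on the goblet list, read 5.80, 7.29, 9.12, 11.65, 12.02, 12.30 and 12.34 over the 7 stages and rose by 1.40 ± 0.15 log2 per day (SE, adjusted p = 0.00235). Ero1a, the oxidase that recharges protein disulfide isomerase, rose by 0.46 ± 0.06 (adjusted p = 0.00389). Pdia5 rose by 0.40 ± 0.08 (adjusted p = 0.0177), though the call was lost without E14.5, E17.5 or E18.5, with an adjusted p of up to 0.0869. Gpx8, a peroxidase of the ER, fell by 0.18 per day (slope −0.18 ± 0.02, adjusted p = 0.00440) and was lower in adult colon, with a difference of −1.77 ± 0.13 log2 (adjusted p = 2.38e-04). In all, 5 of 23 genes rose and 4 fell, beside 9.12% and 10.4% of all genes. In adult colon 3 of the 23 were lower, beside 3.26% of all genes. Of these 3, Gpx7 lost its call in 4 omissions, of E18.5, E17.5, E16.5 or E14.5 (adjusted p up to 0.158).

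Among genes that recognize and remove misfolded proteins, 4 of 26 rose (15.4%) and 1 fell (3.85%), beside 9.12% and 10.4% of all genes. Selenos, a membrane protein of the retrotranslocation complex, rose by 0.19 ± 0.02 log2 per day (SE, adjusted p = 0.00358). Herpud1, which carries both ER stress element II and the C/EBP-ATF element shown above, read 7.35, 7.53, 7.33, 8.09, 8.33, 8.33 and 9.81. It was higher in adult colon than the level fitted at E18.5 by 1.40 ± 0.23 log2 (SE, adjusted p = 0.00736), while its embryonic slope of 0.23 ± 0.04 was lost in 4 omissions, those of E13.5, E14.5, E17.5 and E18.5 (adjusted p up to 0.0667). Of 33 genes for translocation, signal peptide cleavage and N-glycosylation, 4 rose (12.1%) and 1 fell (3.03%), beside the same shares of all genes. Sec11c, a catalytic subunit of signal peptidase, rose by 0.33 ± 0.04 (adjusted p = 0.00396). Of 30 genes of transport between ER and Golgi, 4 rose (13.3%) and none fell, again beside 9.12% and 10.4% of all genes. Kdelr3, a receptor that returns ER proteins from the Golgi, rose by 0.42 ± 0.06 (adjusted p = 0.00549).

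Of 23 sensors and regulators, 3 rose and none fell, beside 9.12% and 10.4% of all genes. Creb3l4, an ER-bound transcription factor of the same family as Creb3l1, read 5.68, 6.58, 6.75, 8.42, 8.70, 8.86 and 9.19 over the 7 stages and rose by 0.68 ± 0.08 log2 per day (SE, adjusted p = 0.00264), and its largest step was between E15.5 and E16.5, a day later than that of Creb3l1. Tmbim6, known as Bax inhibitor 1 and as a partner of IRE1, rose by 0.17 ± 0.02 (adjusted p = 0.00281). Nfe2l2, the factor of the antioxidant response, was higher in adult colon by 1.53 ± 0.23 log2 (adjusted p = 0.00496).

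The list of known ATF4 targets held 35 measured genes, of amino acid metabolism and transport, tRNA synthetases and other functions. Of these, 7 rose and 2 fell, beside 9.12% and 10.4% of all genes. Atf4 mRNA itself had a slope of 0.10 ± 0.05 log2 per day (SE). The rising genes were Aldh18a1, Cth, Slc7a1 and Slc1a5, and, outside amino acid metabolism and transport, Stc2, Vldlr and Ddit4. No tRNA synthetase gene rose, and Iars fell. The slope calls of Stc2, Vldlr and Iars were each lost in some omissions of single arrays. Of the 7 rising genes, only 2 passed again without E13.5 and only 2 without E16.5. Calls among Aldh18a1, Cth, Slc7a1 and Slc1a5 were therefore lost there as well. Ddit4, an inhibitor of mTORC1, rose by 0.19 ± 0.03 log2 per day (SE, adjusted p = 0.00540). Psat1, of serine synthesis, fell by 0.16 per day (slope −0.16 ± 0.02, adjusted p = 0.00281) and read 7.26 in adult colon, against 9.25 at E18.5. Cbs and Cth, the enzymes that turn homocysteine into cysteine, were higher in adult colon by 2.78 ± 0.13 (adjusted p = 4.9e-05) and 1.92 ± 0.18 log2 (adjusted p = 7.58e-04). The list thus held genes that moved in opposite directions in adult colon.

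Of 18 genes of stress signalling and cell death, 5 rose, 2 fell and 4 were higher in adult colon, beside 9.12%, 10.4% and 4.23% of all genes. Chac1, which degrades glutathione and is an ATF4 target, rose by 0.24 ± 0.02 log2 per day (SE, adjusted p = 0.00185), Gadd45b by 0.36 ± 0.04 (adjusted p = 0.00291) and Pmaip1, the cell death gene for NOXA, by 0.30 ± 0.04 (adjusted p = 0.00386). Atf3 read 5.86, 5.93, 5.69, 5.98, 6.08, 6.20 and 8.47 and was higher in adult colon by 2.34 ± 0.15 log2 (adjusted p = 1.52e-04), as was Pmaip1 by 1.84 ± 0.20 (adjusted p = 0.00130). Atf3 is also one of the tissue handling genes, of which Fos, Zfp36, Hspa1a and Hspa1b were higher in adult colon as well. In the embryo, 7 of the 19 handling genes rose (beside 9.12% of all genes), among them Fos (7.49 at E18.5, against 5.95 at E13.5), Zfp36, Ier3 and Hspa1b. The part of the handling genes in either result was not tested. Of the 11 measured pathway genes with the element shown for Nupr1, 3 rose, 1 fell and 2 were higher in adult colon, beside 9.12%, 10.4% and 4.23% of all genes.

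**Figure D3:**
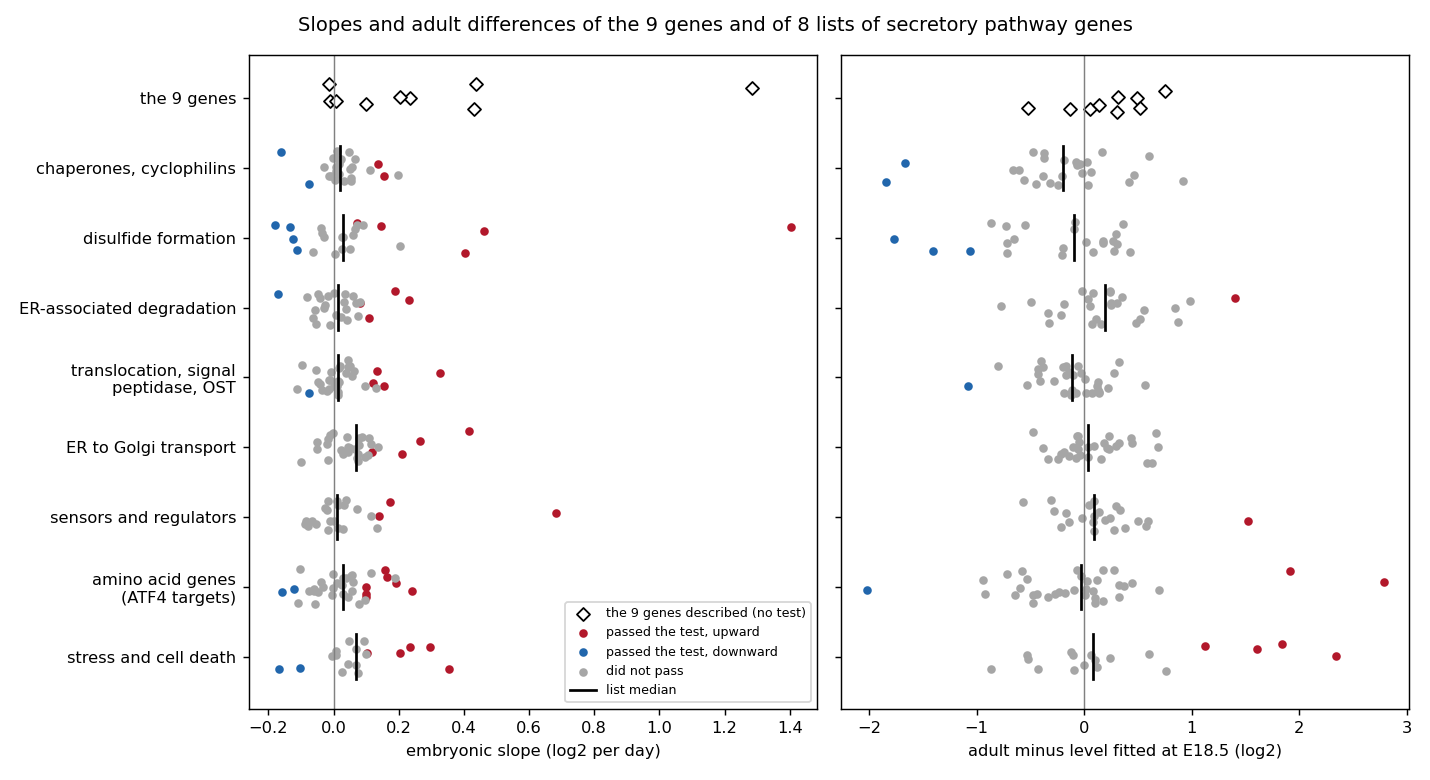
Embryonic slope in log2 per day (left) and adult minus the level fitted at E18.5 in log2 (right) for the 9 genes (diamonds, no test) and for each measured gene of 8 lists. Red and blue points passed the limma test upward and downward, grey points did not, and black bars are list medians, which lay between 0.01 and 0.07 for the slope, while Agr2 stood apart at 1.40 and Nupr1 at 1.28.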

How the data were processed

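RNA from colon of C57BL/6 mice at 6 embryonic stages and in the adult was hybridized to Affymetrix mouse expression arrays, 1 per stage. The values the authors deposited are RMA-normalized and on the log2 scale, made with affy 1.22.1 under R 2.9.2 according to the submitters' processing notes. No count, depth or detection call belongs to these values, so the number of arrays limits the precision. Without replicates, error can be estimated only from the scatter of the 6 embryonic arrays about a line. An SD about a line is that of the gene alone. SEs and p-values use limma's variance, which is drawn toward a value common to all genes. An SE can therefore be smaller than the SD of its gene would give.

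Of 45101 probe sets, 932 with several gene names and 9211 without one were dropped, and taking the median over the remaining probe sets of each symbol gave 18194 genes, with names updated through a GRCm38.p6 table (18033 matched). limma 3.58.1 in R 4.3.3 (lmFit, eBayes) fitted a slope per embryonic day and a term for the adult array, which leaves 4 degrees of freedom. The single adult array is assumed to vary like the embryonic ones, and its stage and array cannot be told apart. Slopes passed with a p-value under 0.05 after Benjamini-Hochberg adjustment over all genes. Adult differences also had to reach a size of 1 (log2).

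The 9 genes and all lists were chosen with earlier results of these data known. The 9 genes get no p-value. Genes named from a list were the 3 with the largest called slope in each direction and the 2 with the largest called adult difference, and the text gives mainly those that passed whichever embryonic array was left out. Alternatives used only the brightest probe set of a gene, no dim genes, centred arrays, trend and robust settings, another adult comparison, omission of each embryonic array and, added after seeing the data, single probe sets and no dim probe sets. The fits were tested on simulated data. Python 3.11.15, numpy 2.4.6, pandas 2.3.3 and matplotlib 3.10.9 were used.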

Additional observations from a re-analysis of the deposited data

How the results depend on the processing

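The difference between adult colon and E13.5 kept its sign for 8 of the 9 genes under the alternatives run. The exception was Atf4, at −0.02 without probe sets ending in _x_at or _s_at (0.21 as reported), a shift within the SD about its line. Sizes depended on the probe sets read. Adult minus E13.5 was 0.57 for Ddit3 with the brightest probe set or without dim ones and 0.22 with centred arrays (0.32 as reported), 1.15 for Ern1 with the brightest probe set or without dim ones (0.12 as reported), 0.10 for Dnajc3 with the brightest probe set and 1.70 without probe sets ending in _x_at or _s_at (1.04 as reported), and 1.87 for Xbp1 without those probe sets (1.52 as reported). The cause was not tested. The brightest probe set of each gene gave 1004 genes lower in adult colon, against 593 as reported. It also gave 3 lower ATF4 target genes, 1 falling chaperone gene, 2 lower and 3 falling translocation genes. Single probe sets, added after seeing the data, gave 14 pathway genes lower in adult colon, with 3 lower ATF4 target genes, 2 higher, 1 lower and 3 falling degradation genes, 1 lower stress gene and 2 lower and 2 falling translocation genes. Setting adult colon against the E17.5 and E18.5 average gave 2 higher degradation genes, trend and robust settings gave 1 falling chaperone gene and 0 falling translocation genes, leaving out the dimmest 25% of genes gave 0 falling translocation genes, and centring gave 2.

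Leaving out each embryonic array in turn gave 812 to 2076 rising and 856 to 2523 falling genes among all genes, and 17 to 47 rising and 3 to 17 falling pathway genes. By list, rising and falling genes ranged from 1 to 4 and 0 to 2 for chaperones, 2 to 6 and 1 to 5 for disulfide formation, 1 to 4 and 0 to 1 for degradation, 1 to 6 and 0 to 2 for translocation, 2 to 8 and 1 to 4 for ATF4 targets, and 3 to 8 and 0 to 2 for stress genes. Transport genes that rose ranged from 2 to 8, sensors that fell from 0 to 1, and degradation genes higher in adult colon from 1 to 3. Of 34 called slopes of the genes eligible to be named, 14 passed under every omission, and of 12 adult differences 11 did, the exception being Gpx7. Fewer arrays leave fewer degrees of freedom, and 1 array per stage is the main limit. No paired analysis was possible because each stage had 1 array and the labels give no replicate numbers that stages share.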
